A study of Mus musculus with 6 samples.

Results

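The caveolae coat and cavin genes described here are Cav1, Cav2, Cav3, Cavin1, Cavin2, Cavin3, Ehd2 and Pacsin2, the caveolins, cavins and neck proteins of caveolae, taken as a list of names. The list was chosen with earlier results of these data known. Their Ensembl identifiers were matched to symbols (Cavin1, Cavin2 and Cavin3 were formerly Ptrf, Sdpr and Prkcdbp), and all 8 were found among the 55401 genes of the count files. All 8 passed the filter on low counts. Caveolae are small flask-shaped pits of the plasma membrane. Caveolins, inserted in the inner leaflet of the membrane as oligomers, and cavins, which assemble on the cytoplasmic side, form their coat, while EHD2 and PACSIN2 act at the neck. Fibroblasts, adipocytes, endothelial cells and muscle cells are rich in caveolae, which buffer membrane tension and hold signalling receptors, and transcription of caveolar genes has been linked to YAP, TAZ and TEAD in other cells.

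NIH3T3, a mouse embryonic fibroblast line, was sequenced in 6 libraries of poly(A)-selected RNA. Every library is listed with 48 h of treatment, with DMSO or compound, and a seeding time of 16 h. EV (2 libraries) carried an empty vector and received DMSO. TC (1 library) stably expressed TAZ-CAMTA1, the fusion protein of epithelioid hemangioendothelioma, and also received DMSO. TC + ATA (3 libraries) expressed the same fusion and received 10 μM aurintricarboxylic acid (ATA) for 48 h, the compound that the study describes as a disruptor of TAZ-TEAD binding. There was no EV library with ATA, and the labels do not say whether libraries of a group came from separate cultures, so the p-values measure the spread between these libraries only.

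Totals ran from 58471484 to 74413193 counts. Reads on the mouse gene Wwtr1, which encodes TAZ, came to 110 and 104 CPM in EV (CPM, counts per 1000000 after TMM normalization), 139 CPM in TC and from 129 to 131 CPM in TC + ATA, and Camta1 lay between 15.45 and 19.2 CPM in every library. These counts do not separate an introduced gene from the endogenous one. All 9 fibroblast markers examined were present, with a summed level from 14700 to 16900 CPM in EV, 18600 CPM in TC and from 18200 to 19400 CPM in TC + ATA. Within that list Col1a1, Col1a2 and Vim were higher in TC than in both EV libraries (Vim had 3430 and 2790 CPM in EV and 4850 CPM in TC), whereas Fn1, Thy1, Pdgfra and Pdgfrb were lower (Pdgfra had 404 and 422 CPM in EV and 180 CPM in TC), and Col3a1 and S100a4 lay between them. Their part in the results was not tested. The summed levels of 6 markers each were low but not flat across groups. For endothelial cells they were 1.82 to 2.58 CPM in EV, 3.82 CPM in TC and 3.15 to 3.89 CPM in TC + ATA. For adipocytes they were, in the same order, 2.09 to 2.71, 2.48 and 3.72 to 3.92 CPM. For epithelium they were 0.38 to 0.628, 1.2 and 0.933 to 1.28 CPM. For blood cells they were 9.47 to 9.48, 6.58 and 4.56 to 9.66 CPM. The part of these markers in the results was not tested either.

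The promoters of Cavin2, Cav1 and Cavin1 are shown first because these genes had the largest changes between TC and EV among the 8. RefSeq windows of GRCm38.p6 were found for 7 of the 8 genes, in 11 windows that each run from 250 bases before to 50 bases after a transcript start. The 250 bases before the start follow, 5′ to 3′ on the strand of the gene, in lower case. Capitals mark the TEAD motif GGAATG, searched on both strands and therefore also read as CATTCC.
Cavin2 (chr1:51288876-51289125, plus strand): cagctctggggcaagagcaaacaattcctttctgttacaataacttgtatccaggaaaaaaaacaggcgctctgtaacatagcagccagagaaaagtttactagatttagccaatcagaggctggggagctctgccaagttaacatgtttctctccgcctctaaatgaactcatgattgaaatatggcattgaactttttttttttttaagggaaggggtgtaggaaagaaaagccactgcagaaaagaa
Cav1 (chr6:17306085-17306334, plus strand, the upstream of its 2 windows): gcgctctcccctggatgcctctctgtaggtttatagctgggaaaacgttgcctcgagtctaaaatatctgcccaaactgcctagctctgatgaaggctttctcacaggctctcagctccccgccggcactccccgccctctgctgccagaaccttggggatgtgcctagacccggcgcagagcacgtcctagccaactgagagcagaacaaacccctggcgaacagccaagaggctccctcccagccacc
Cavin1 (chr11:100970616-100970865, minus strand): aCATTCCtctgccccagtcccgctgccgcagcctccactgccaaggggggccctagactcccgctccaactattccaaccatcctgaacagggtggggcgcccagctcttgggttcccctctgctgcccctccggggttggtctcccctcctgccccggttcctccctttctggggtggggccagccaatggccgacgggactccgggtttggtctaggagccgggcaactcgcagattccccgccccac

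In Cavin1 the motif starts 249 bases before the transcript start shown, and the second Cavin1 window, offset by 2 bases, holds the same site. By the gene bounds given below, Cavin1 begins at 100970887 on the minus strand, so this site lies inside the annotated gene. It is upstream of the RefSeq starts only. The other match lay in Cav3, at base 19 of the transcript. The letters of the motif were not found in the windows of Cav1, Cav2, Cavin2, Ehd2 or Pacsin2. Of all 32851 windows of the same length, 14.7% held the motif. The CArG box, which SRF binds, was found in none of the 11 windows and in 1.63% of all. The Cavin1 windows were rich in G and C (66.7% and 67.0%) and that of Cavin2 was not (43.3%, with 4 CpG), against a median of 52.7% and 7 CpG over all windows. These matches are descriptions of sequence, and no factor binding was measured.

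Caveolar transcripts were more abundant in cells that expressed TC. The 8 genes summed to 2209 and 2046 CPM in EV, 3896 CPM in TC and 4018, 3944 and 3740 CPM in TC + ATA. As a share of all counts, they made up 0.222% and 0.2215% in the EV libraries, 0.377% in TC and from 0.372% to 0.391% in TC + ATA. Between TC and EV, 7 of the 8 were called higher (adjusted p of at most 0.05, edgeR's quasi-likelihood test), and Cav3 was not called. No member was called lower, at an unadjusted p under 0.05 either, and DESeq2 gave the same counts of 7 and 0. Over the 18539 genes tested the rates of such calls were 14.8% for higher and 13.2% for lower levels. These rates include many genes at lower levels than the 7 called members, which averaged 99.7 CPM or more. Among 10887 genes with at least 5 CPM in 1 library, 2524 were called higher and 2189 lower, a larger share in each direction than over all genes tested. By mean CPM the 7 called members ranked higher still, in the top 12.3% of the genes tested. Call rates among genes at that level were not counted. The median log2 fold change was 0.51 over the members and −0.03 over all genes tested. No member reached the log2 fold change of 2 that the study also set as a limit, which 2.36% of the genes tested passed with the same call. For all 8 genes every one of the 4 TC-expressing libraries lay above both EV libraries, as for 25.4% of the genes tested. The plot of levels by library shows this gap. In bulk RNA, more transcript per cell and more cells that express a gene cannot be told apart.

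**Figure D1:**
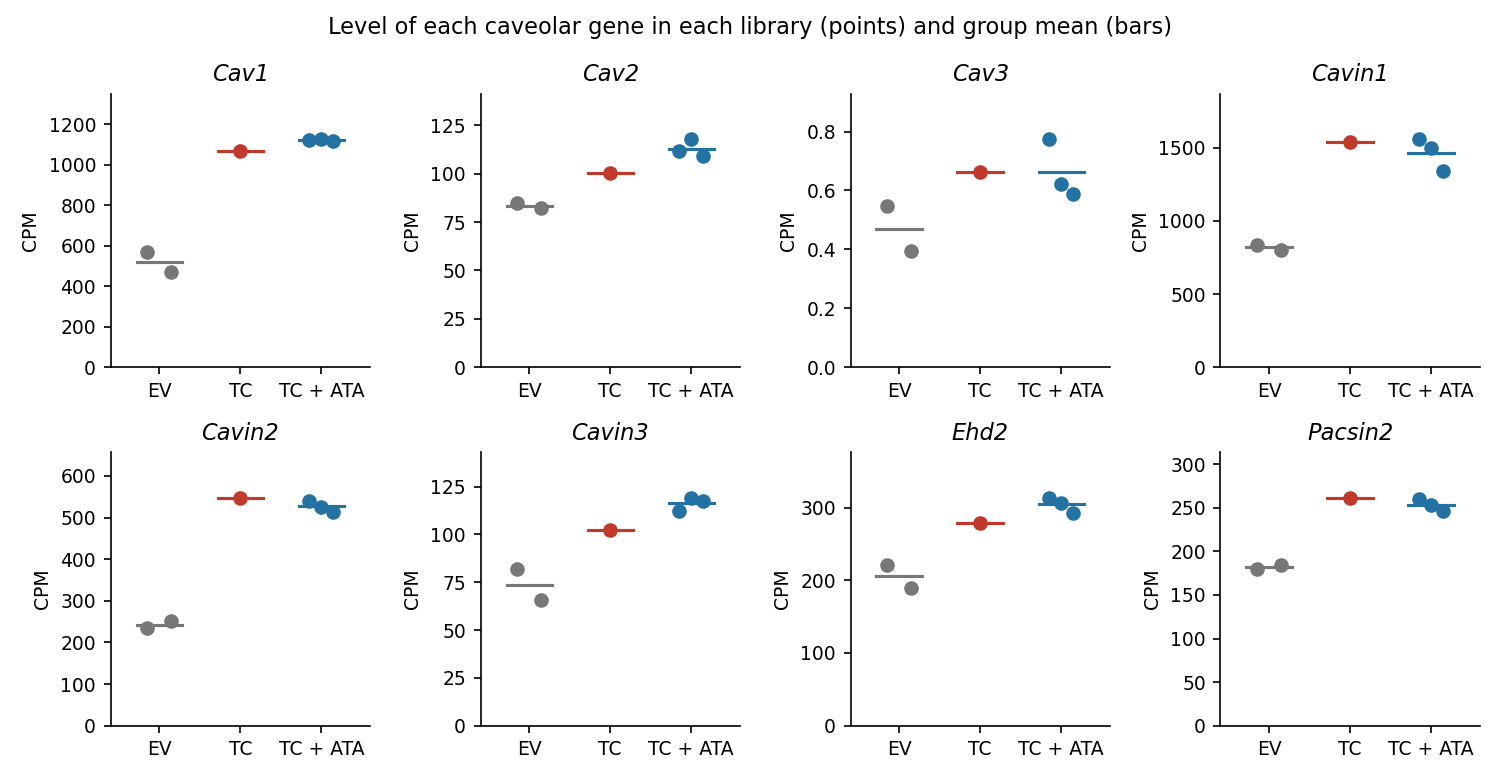
Level of each of the 8 genes in CPM (vertical axes, from 0) in the EV, TC and TC + ATA libraries. Points are libraries and bars are group means. In each panel the 4 TC-expressing libraries sit above both EV libraries, and the TC library lies among or next to the TC + ATA libraries. The Cav3 panel covers less than 1 CPM.

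Cav1 (chromosome 6, 17306335 to 17341452 on GRCm38, the build of all gene positions here) encodes caveolin-1, the main structural protein of caveolae outside muscle. It had 571 and 470 CPM in EV, 1065 CPM in TC and 1120, 1126 and 1116 CPM in TC + ATA. The EV libraries differed from each other by more than the 3 TC + ATA libraries did, and the gap from them to the TC-expressing libraries was wider still. TC exceeded EV by a log2 fold change of 1.03 (standard error, SE, 0.12, edgeR adjusted p = 0.000208), a 2.05-fold higher level. Without EV replicate 1 and without EV replicate 2 it was 1.17 and 0.90.

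Cav2 (chromosome 6, 17281185 to 17289115) is the neighbour of Cav1 on the same strand, 17219 bases away. Its product, caveolin-2, joins caveolin-1 in mixed oligomers and needs it to reach the cell surface. Cav2 had 84.7 and 82.4 CPM in EV, 100 CPM in TC and 112, 118 and 109 CPM in TC + ATA. The libraries of the 3 groups did not overlap, but the steps between them were small. In TC versus EV the log2 fold change was 0.26 (SE 0.08, edgeR adjusted p = 0.0401). That call was lost in fits without TC + ATA replicate 1, 2 or 3 (adjusted p = 0.0948, 0.0921 and 0.0851 from edgeR), with only the EV and TC libraries (0.317), with every gene that had a count in the fit (0.0530) and with scaling by library totals, where the log2 fold change was 0.16 (edgeR adjusted p = 0.189).

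Cav3 (chromosome 6, 112459505 to 112472872) encodes the caveolin of muscle. It was low, with 41 and 30 counts in the EV libraries, 46 in TC and 44, 44 and 41 in TC + ATA, or from 0.393 to 0.774 CPM. In TC versus EV the log2 fold change was 0.49 with a 95% interval from −0.54 to 1.52 (edgeR adjusted p = 0.474), so a change of the size seen for Cav1 was not distinguishable from none at this depth. The muscle markers were mixed. Acta1 had from 172 to 368 CPM and Ckm from 71.0 to 134 CPM, whereas Myod1, Myog and Myh3 had at most 1.18 CPM. The summed level of the 6 muscle markers was from 270 to 383 CPM in EV, 353 CPM in TC and from 416 to 545 CPM in TC + ATA, and its part in the Cav3 counts was not tested.

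Cavin1 (chromosome 11, 100956733 to 100970887) encodes the cavin without which caveolae do not form, and it was the member with the most counts. It had 835 and 802 CPM in EV, 1539 CPM in TC and 1559, 1496 and 1344 CPM in TC + ATA. The spread among the TC + ATA libraries was wider than between the EV libraries, and the lowest of them was still far above EV. TC exceeded EV by a log2 fold change of 0.91 (SE 0.11, edgeR adjusted p = 0.0003). Cavin2 (chromosome 1, 51289126 to 51302960) encodes a phosphatidylserine-binding cavin that helps to curve the membrane. Cavin2 had 234.5 and 251 CPM in EV, 548 CPM in TC and 541, 525 and 514 CPM in TC + ATA. This was the largest change among the 8 genes, with a log2 fold change of 1.17 in TC versus EV (SE 0.09, edgeR adjusted p = 1.67e-05).

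Cavin3 (chromosome 7, 105480083 to 105482300) encodes a cavin that binds protein kinase C delta. It had 81.8 and 65.7 CPM in EV, 102 CPM in TC and 112, 119 and 117 CPM in TC + ATA. The EV libraries were further apart than those of TC + ATA, and neither reached the TC library. TC exceeded EV by a log2 fold change of 0.47 (SE 0.12, edgeR adjusted p = 0.0172). The annotated antisense gene Gm45667 overlaps 374 of the 1662 exonic bases of Cavin3. Whether reads were counted by strand is not given in the sources used here, so the reads of both cannot be told apart there.

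Ehd2 (chromosome 7, 15946958 to 15967567) encodes an ATPase that forms rings at the neck and keeps caveolae at the cell surface. It had 222 and 189 CPM in EV, 279 CPM in TC and 314, 307 and 293 CPM in TC + ATA. All TC-expressing libraries lay above EV, again with a wider gap between the EV libraries than between those of TC + ATA. TC exceeded EV by a log2 fold change of 0.44 (SE 0.11, edgeR adjusted p = 0.0130), and the call was lost when only the EV and TC libraries entered the fit (edgeR adjusted p = 0.103). Pacsin2 (chromosome 15, 83375607 to 83464606) encodes an F-BAR protein that bends the membrane at the neck. Pacsin2 had 180 and 185 CPM in EV, 262 CPM in TC and 260, 253 and 246 CPM in TC + ATA. Libraries within a group were close, and TC exceeded EV by a log2 fold change of 0.52 (SE 0.08, edgeR adjusted p = 0.00127).

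**Figure D2:**
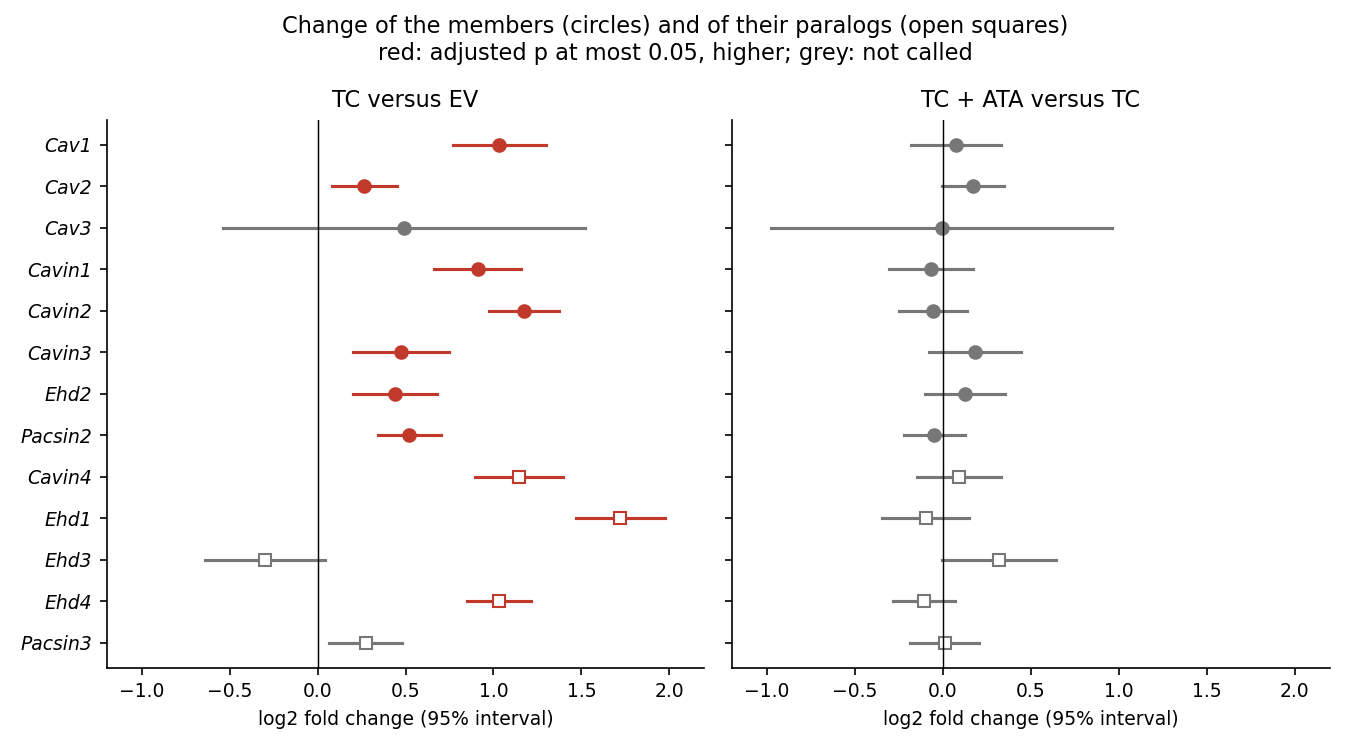
Log2 fold changes (horizontal axes) with 95% intervals from edgeR for the 8 genes (circles) and 5 paralogs (open squares), in TC versus EV (left) and TC + ATA versus TC (right). Red marks genes called higher and grey those not called. On the left 7 circles are red, from 0.26 for Cav2 to 1.17 for Cavin2, and on the right no interval of a member excludes 0.

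No caveolar gene passed the test between the ATA-treated and the vehicle-treated TC cells. Between TC + ATA and TC, none of the 8 was called in either direction by edgeR's quasi-likelihood test, none had an unadjusted p under 0.05 and DESeq2 called none. The call rate over all genes was 0.426% for higher and 0.156% for lower levels, so few genes of any kind were called in this fit of all 6 libraries. The groups that gave its spread did not vary alike. Chi-square per degree of freedom of the counts was 61.3 between the 2 EV libraries and from 5.86 to 6.61 between TC + ATA libraries. Between TC and TC + ATA libraries it was from 22.8 to 24.7. The p-values and intervals here rest on that pooled spread, and the number of calls depended on it. The median log2 fold change of the members was 0.03, against 0.00 over all genes tested (0.00329 before rounding), and single genes ran from −0.07 (Cavin1) to 0.18 (Cavin3). The 95% interval was from −0.18 to 0.33 for Cav1, from −0.31 to 0.17 for Cavin1, from −0.25 to 0.13 for Cavin2 and from −0.22 to 0.12 for Pacsin2. A fall as large as the difference between TC and EV lay outside the interval of each of these genes, while that of Cav3 ran from −0.98 to 0.96.

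Cav1, Cav2, Cavin3 and Ehd2 had all 3 TC + ATA libraries above the TC library, as did 30.5% of all genes tested, and Cavin2 and Pacsin2 had all of them below it, as did 32.7%. Cav2 and Cavin3 had log2 fold changes of 0.17 and 0.18 (standard errors 0.08 and 0.12, adjusted p = 0.543 and 0.679 from edgeR). The choice of libraries for the fit changed their calls. With only TC and TC + ATA in the fit both were called higher (adjusted p = 0.0494 and 0.0351 from edgeR), as were 4.42% of all genes in that fit. Cavin3 was also called without EV replicate 1 (0.0468, with 3.84% of all genes called higher) or EV replicate 2 (0.0365, with 4.41%), when EV was left with 1 library that is assumed to vary like the rest.

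The ATA-treated cells also had more caveolar transcripts than EV. In TC + ATA versus EV, 7 of the 8 genes were called higher and none lower, at an unadjusted p under 0.05 or with DESeq2 likewise, where the rates over all genes were 18.0% for higher and 18.6% for lower levels. This comparison shares the EV libraries with TC versus EV. The log2 fold changes were 1.12 for Cavin2, 1.11 for Cav1, 0.84 for Cavin1, 0.66 for Cavin3, 0.57 for Ehd2, 0.47 for Pacsin2 and 0.43 for Cav2. The highest adjusted p among these 7 was 0.0006, for Cav2, and each call held in all 13 alternative fits. Cav3 had a log2 fold change of 0.49 (edgeR adjusted p = 0.313).

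To compare genes with each other, CPM was divided by the length of the longest annotated transcript. In EV the levels were 234.5 ± 6.62 CPM per kb for Cavin1, 189.5 ± 25.9 for Cav1, 79.5 ± 3.84 for Cavin2, 49.4 ± 0.977 for Pacsin2, 44.4 ± 6.88 for Cavin3, 40.1 ± 4.48 for Ehd2, 30.6 ± 0.607 for Cav2 and 0.407 ± 0.0945 for Cav3 (SD, n = 2). Cavin1 and Cav1 were thus far above the neck proteins and above Cav2. Pacsin2 and Cavin3, and Cavin3 and Ehd2, overlapped between libraries. With the union of all exons as the length, Pacsin2 had 37.15 CPM per kb and lay below Cavin3 and Ehd2. In TC + ATA, Cavin1 (420 ± 31.7 CPM per kb) and Cav1 (408 ± 1.73) differed by less than the spread of Cavin1 (SD, n = 3). With the union of exons as the length, their levels were 409 and 325 CPM per kb, and all 3 libraries had more Cavin1 than Cav1. By CPM per kb averaged over the 6 libraries, most of which express TC, Cavin1 ranked 179 and Cav1 194 of the 18519 genes tested with a length, while Cav3 ranked 13062.

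**Figure D3:**
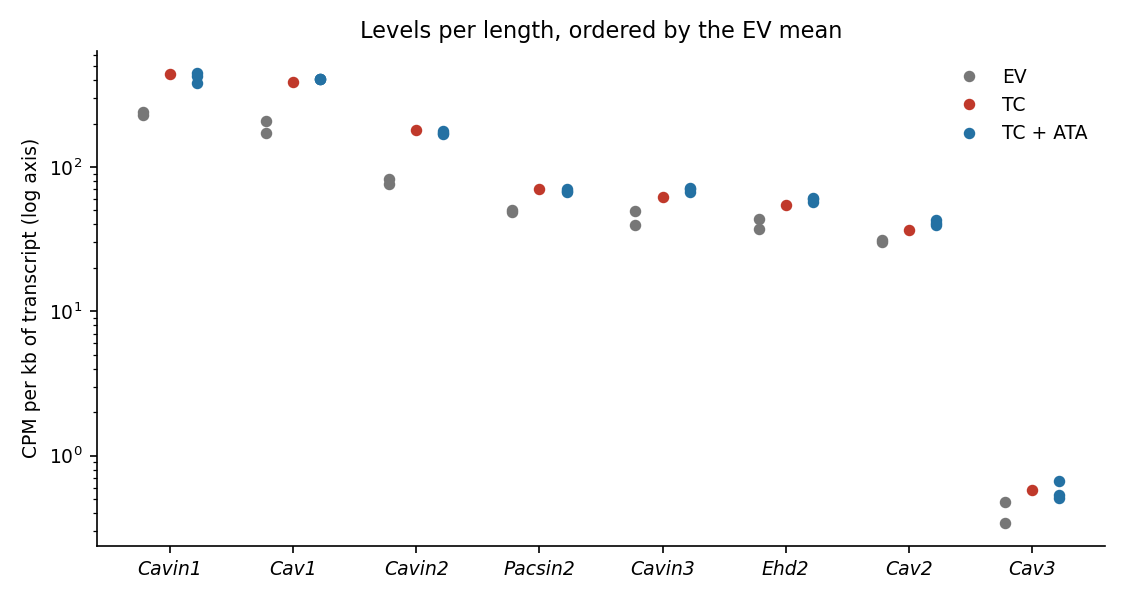
CPM per kb of the longest transcript (vertical log axis) for the 8 genes, ordered by their EV mean. Points are libraries, coloured by group. Cavin1 and Cav1 lie at 171 CPM per kb or above in every library, 5 genes lie between 30.1 and 179, and Cav3 is at most 0.669.

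Since ratios within a library do not depend on scaling between libraries, the make-up of the coat was also examined. The ratio of Cav1 to Cav2 per length was 6.70 and 5.68 in EV, 10.6 in TC and 9.97, 9.51 and 10.2 in TC + ATA. Every TC-expressing library thus held more Cav1 per Cav2 than either EV library. Cav1 made up 86.85% and 84.9% of the caveolin transcripts per length in EV and from 90.4% to 91.2% in the 4 TC-expressing libraries, and Cav3 made up at most 0.198%. Among the cavins, with Cavin4 included, Cavin2 had a share of 20.8% and 23.1% in EV, 26.0% in TC and 25.3%, 25.25% and 26.6% in TC + ATA. These shares are a description without a test. Cavin1 held from 60.8% to 64.8% of the cavin transcripts in every library. The ratio of Cav1 to Cavin1 was 0.869 and 0.745 in EV, 0.880 in TC and from 0.914 to 1.06 in TC + ATA, so TC lay close to EV replicate 1. Cavin1 per Pacsin2 was 4.91 and 4.59 in EV and from 5.77 to 6.34 in the TC-expressing libraries.

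**Figure D4:**
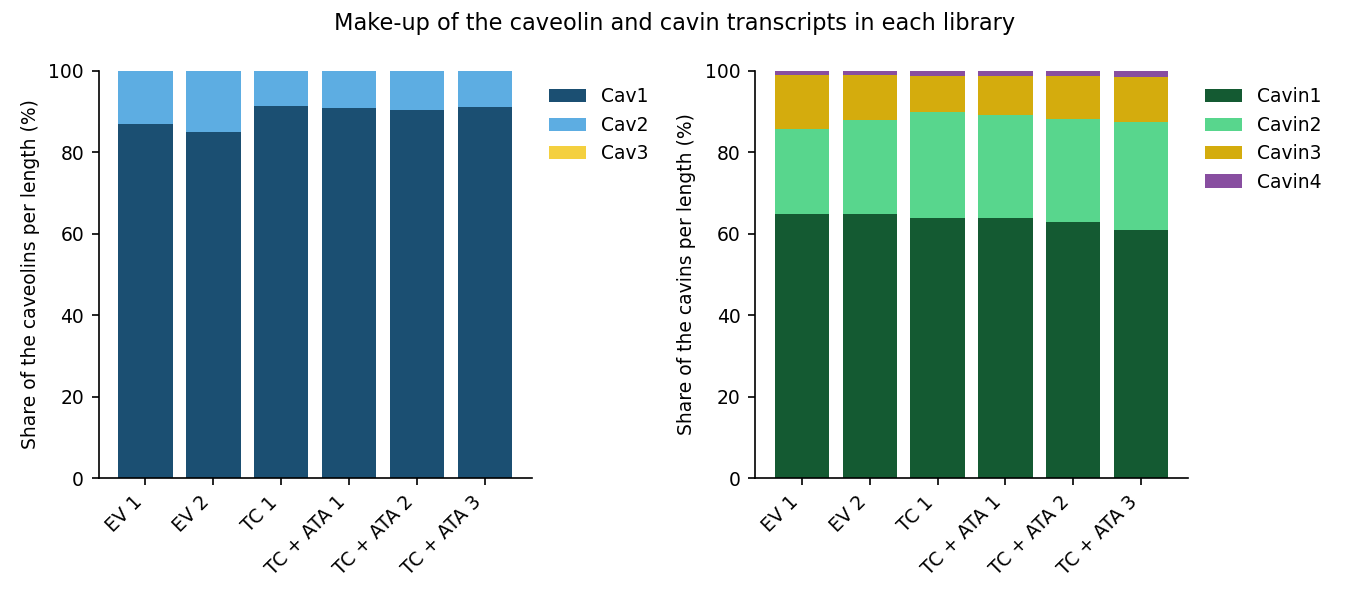
Share of each gene in the caveolin (left) and cavin (right) transcripts of each library, in percent of the CPM per kb of the family. Bars are libraries. The Cav2 share is 12.96% and 14.95% in the EV bars and from 8.63% to 9.51% in the others, and Cavin1 is the largest part of every cavin bar.

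The paralogs of the members did not all move alike. Cavin4, the muscle cavin, had 8.09 and 7.95 CPM in EV, 17.8 CPM in TC and from 17.8 to 19.8 CPM in TC + ATA, and rose with a log2 fold change of 1.15 in TC versus EV (edgeR adjusted p = 7.84e-05). Ehd1, whose product acts in endocytic recycling, had 227 and 189 CPM in EV, 685 CPM in TC and from 624 to 660 CPM in TC + ATA. Its log2 fold change of 1.72 (SE 0.11, edgeR adjusted p = 7.72e-06) exceeded those of all 8 members, and the ratio of Ehd1 to Ehd2 per length was 1.56 and 1.525 in EV, 3.75 in TC and from 3.17 to 3.25 in TC + ATA. Ehd4 rose by 1.03 on the log2 scale (edgeR adjusted p = 2.31e-05). Ehd3 had a log2 fold change of −0.30 (edgeR adjusted p = 0.179) and Pacsin3 of 0.27 (edgeR adjusted p = 0.0542). Pacsin3 passed the threshold without EV replicate 2, with relative log expression factors and with a filter of 5 CPM (adjusted p = 0.00216, 0.0450 and 0.0335 from edgeR). Pacsin1, the neuronal form, had at most 22 counts and none in TC + ATA replicate 1.

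A list of 17 genes was made up of these paralogs and of partners, regulators and neighbours of caveolae in the membrane. In this list 9 genes were called higher in TC than in EV and none lower, and DESeq2 gave the same counts. Over all genes tested the edgeR rates were 14.8% for higher and 13.2% for lower levels. None of the 17 was lower at an unadjusted p under 0.05, whereas 3519 of the 18539 genes tested were. The median log2 fold change was 0.33. Besides Cavin4, Ehd1 and Ehd4, those called were Ror1, Flna, Dnm2, Src, Flot1 and Fyn. Ror1, a receptor-like kinase that holds CAV1 and CAVIN1 together, had 0.989 and 0.643 CPM in EV, 4.08 CPM in TC and from 2.65 to 3.50 CPM in TC + ATA. It exceeded EV in TC by a log2 fold change of 2.32 (SE 0.29, edgeR adjusted p = 0.000415). Flna, which encodes an actin crosslinker that tethers caveolin-1, had a log2 fold change of 0.65, Dnm2, which encodes the dynamin that cuts vesicles off, 0.61, and Src, whose kinase phosphorylates caveolin-1, 0.58. Flot1, which marks membrane microdomains other than caveolae, had 0.43. Their adjusted p-values were 0.00155, 0.0004, 0.000647 and 0.00444 from edgeR, in that order. With a replicate block the call of Flot1 was lost. The calls of Flna and Flot1 were lost when TC + ATA was left out of the fit (edgeR adjusted p = 0.114 and 0.0590).

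In TC + ATA versus TC the list had no call by edgeR, with 1 gene higher and 1 lower at an unadjusted p under 0.05, where 5.65% and 3.95% of all genes tested were, and DESeq2 called 1 lower. The higher one was Cd36 (log2 fold change 0.79, edgeR adjusted p = 0.435), a fatty acid transporter near 1.01 CPM in TC. The lower one in both tools was Src, with 103.5 CPM in TC and 82.8, 81.8 and 77.4 CPM in TC + ATA against 68.5 and 69.7 CPM in EV. The log2 fold change was −0.36 (SE 0.07, edgeR adjusted p = 0.0935).

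The clathrin coat, the other main coat of endocytosis, was set beside the caveolar coat. Of 15 genes for clathrin chains and adaptors, 4 were called higher and none lower in TC versus EV. The rates over all genes tested were 14.8% for higher and 13.2% for lower levels. DESeq2 called 5 of the 15 higher and none lower. None was lower at an unadjusted p under 0.05, whereas 3519 of the 18539 genes tested were. The median log2 fold change of the 15 was 0.11. Cltb, the light chain b, had 43.1 and 36.4 CPM in EV and 95.5 CPM in TC, with a log2 fold change of 1.26 (edgeR adjusted p = 4.95e-05). The others were the heavy chain Cltc (0.55) and the adaptor subunits Ap2a2 (0.34) and Ap2a1 (0.27). In that order edgeR gave adjusted p-values of 0.00453, 0.0130 and 0.0481. The calls of Cltc, Ap2a2 and Ap2a1 were lost with a replicate block, and that of Cltb held. The call of Ap2a2 was lost with only EV and TC in the fit (edgeR adjusted p = 0.193). That of Ap2a1 was lost there (0.333), with library totals (0.126) and without TC + ATA replicate 1, 2 or 3 (adjusted p = 0.107, 0.121 and 0.108 from edgeR). In TC + ATA versus TC none of the 15 was called by edgeR or DESeq2, and 1 was higher at an unadjusted p under 0.05 (Hip1, log2 fold change 0.31, edgeR adjusted p = 0.164), near the 5.65% of all genes tested. The difference between the clathrin and caveolar genes was not tested.

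**Figure D5:**
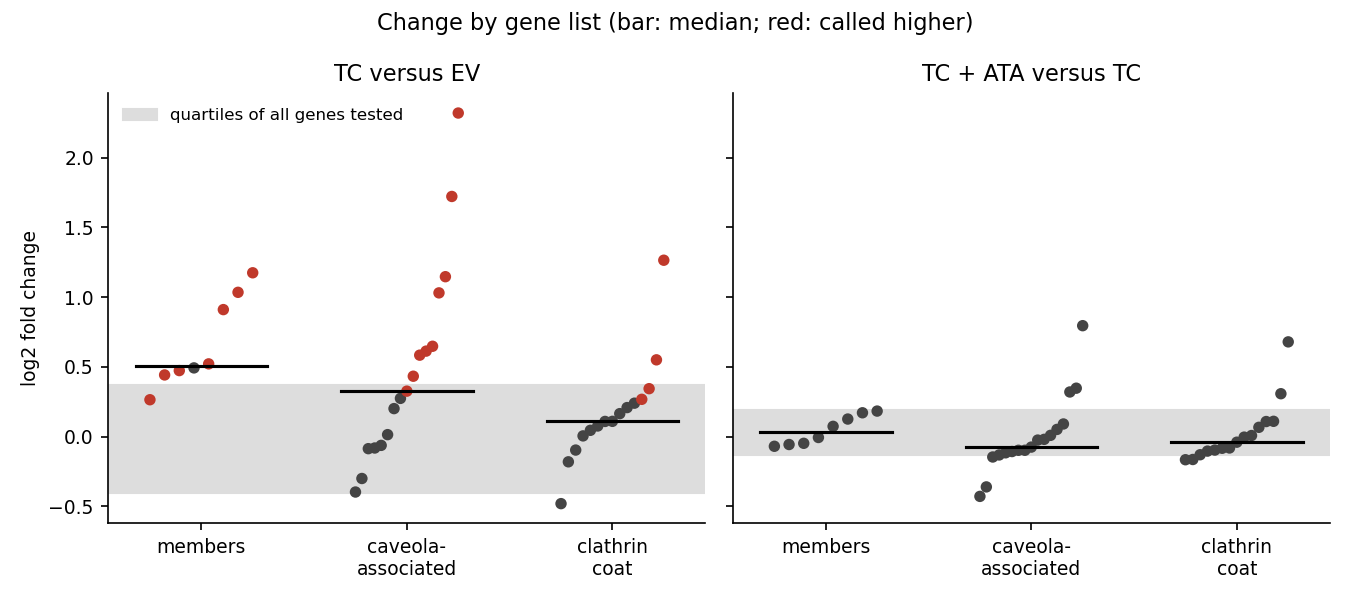
Log2 fold changes (vertical axis) of the 8 members, 17 caveola-associated genes and 15 clathrin coat genes in TC versus EV (left) and TC + ATA versus TC (right). Points are genes, red where called higher, and bars are medians. The grey band spans the quartiles of all genes tested. The member median is 0.51 on the left and 0.03 on the right.

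The genes with the most similar profiles over the 6 libraries were found by the root mean square difference of log2(CPM + 0.5), each taken relative to the EV mean, among 10422 genes with a mean of at least 5 CPM. The nearest to Cav1 were Rab32 and Abcg2 (0.0432 and 0.0440), and those to Cav2 were Ptgfrn and Dnajb11 (0.0210 and 0.0241). Nearest to Cavin1 were Tjp1 and Mast2 (0.0413 and 0.0440), to Cavin2 Plagl1 and Osbpl5 (0.0304 and 0.0328) and to Cavin3 Unc5b and Yif1b (0.0481 and 0.0498). Ehd2 was nearest to Tmem109 and Nucb1 (0.0218 and 0.0251), and Pacsin2 to Cbx5 and Kansl2 (0.0202 and 0.0252). No member was among the 2 nearest genes of another. Abcg2, for example, had 53.9 and 47.6 CPM in EV, 110 CPM in TC and from 107 to 109 CPM in TC + ATA. With scaling by library totals all 14 pairs were the same. Such scaling shifts all genes of a library by nearly the same amount, so this agreement is no check on the pairs.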

How the data were processed

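RNA of 6 NIH3T3 libraries was measured by poly(A)-selected RNA-seq. The authors deposited 1 table of raw read counts per gene for each library. The submitters' processing notes name HISAT2 2.2.1 and mm10, and the study's methods name featureCounts and DESeq2. Which annotation release they counted on, and whether by strand, is not given in the sources used here. Of 55401 gene identifiers, 55141 were matched to a symbol with GENCODE M21, which also gave coordinates and lengths on GRCm38.

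Counts were fitted in R 4.3.3 with edgeR 4.0.16 (TMM factors, filterByExpr, glmQLFit and glmQLFTest, Benjamini-Hochberg adjustment over the 18539 genes tested). All 6 libraries entered a single fit with 3 residual degrees of freedom, so that TC, with 1 library, was assumed to vary like the other groups. Those groups did not vary alike, as the chi-square values above show. A gene was called at an adjusted p of at most 0.05. CPM used the TMM-scaled library sizes. DESeq2 1.42.0, other factors and filters, fits of only the groups compared, a replicate block and leaving out each EV or TC + ATA library were alternatives. The TC library could not be left out. The code was tested on simulated data. All intervals are from edgeR at 95%.

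The text names all 8 members, their paralogs, called genes of the lists of caveola-associated and clathrin coat genes (at most 8 per list by size of change), the 2 genes with the most similar profile to each member of at least 5 CPM, and Wwtr1 and Camta1. Fyn, Cd36, Hip1 and the fibroblast and muscle markers were named after their values were seen. The members and lists were chosen with earlier results of these data known.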

Additional observations from a re-analysis of the deposited data

How the results depend on the processing

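With 1 TC library, comparisons with TC rest on the spread of the other groups, and without an EV library EV too has 1 library that is assumed to vary like the rest. At from 30 to 46 counts per library, depth limited Cav3. Of 309 alternative values for the members, 288 kept their direction and side of the threshold. The calls of Cav1, Cavin1, Cavin2 and Pacsin2 in TC versus EV held in all 13 alternatives. Scaling by library totals moved the median log2 fold change of all genes in TC versus EV from −0.03 to −0.134. The 7 members called in the main fit lay above that median, but only 6 members were called with this scaling. Cav2 lost its call there (edgeR adjusted p = 0.189).

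Cav3 in TC + ATA versus TC (log2 fold change −0.01) reversed with library totals (0.01322) and with only the groups compared (0.002936), and ranged from −0.1296 to 0.07192 with a library left out. Pacsin1 in TC versus EV (−0.40) ranged from −1.16 to 1.25 with a library left out, reversing without EV replicate 2. The cause was not tested. Member calls in TC + ATA versus TC were 2 with only the groups compared and from 0 to 1 with a library left out (1 without EV replicate 1 or 2). Over all genes that comparison gave 79 higher and 29 lower calls, against 236 and 85 with DESeq2, 242 and 108 with no filter, and 795 and 633 with only the groups compared. With a library left out, the range was from 7 (without TC + ATA replicate 3) to 808 (without EV replicate 2) higher and from 3 (without TC + ATA replicate 3) to 762 (without EV replicate 1) lower. Lower calls in TC versus EV (2456) ranged from 1912 to 3708 (without EV replicate 1).

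Correlations of deviations between libraries sharing a replicate number were −0.03 for number 1 and −0.09 for number 2. EV has 2 libraries, whose deviations mirror each other, and TC has 1 library. These values therefore cannot decide whether the replicate numbers pair the samples. With a replicate block, which leaves 1 residual degree of freedom, 4 members were higher in TC versus EV (Cav2, Cavin3 and Ehd2 lost the call, edgeR adjusted p = 0.201, 0.092 and 0.11), and over all genes 1717 were higher and 1467 lower. In TC + ATA versus TC the block gave 32 higher and 8 lower, and in TC + ATA versus EV 2195 lower. Under the block Cav3 (0.26) and Cavin1 (0.01835) reversed in TC + ATA versus TC, as did Pacsin1 (1.83) in TC versus EV.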
